A study of Mus musculus with 4 samples.

Results

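A set of 10 glycolytic enzymes was followed through the cortical mRNA of control and Qk cKO mouse embryos, namely Hk1, Gpi1, Pfkl, Pfkp, Aldoa, Aldoc, Tpi1, Gapdh, Pgk1 and Pkm. They are 10 of the 23038 genes and 38 of the 38240 alternative splicing events measured. The members were chosen by gene symbol, and Pkm by its gene identifier, with no threshold on any value but with earlier results of these same samples known, so the values below describe these samples and the tests beside them are not independent support. The level of 1 member, Gapdh, was lower in Qk cKO and passed the test over all genes close to its limit (FDR 0.0959 in edgeR's quasi-likelihood test). That call was lost in several alternative fits, and Gapdh is not on the study's own list of changed transcripts. The exon choice of another member, Pkm, shifted toward exon 9, while its total level did not pass the test.

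Glycolysis splits glucose into pyruvate in the cytosol and yields ATP and NADH on the way. Hexokinase traps glucose, phosphofructokinase sets much of the flux, and pyruvate kinase makes pyruvate and ATP in the last step. In the embryonic brain the pathway is most active in dividing progenitors, and pyruvate kinase M exists as the isoforms Pkm1 and Pkm2, of which Pkm2 is typical of proliferating cells and Pkm1 of neurons and muscle. Gapdh is also known as a housekeeping gene, to which PCR results are often scaled, and the study used it in this way.

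The experiment compared the E14.5 cortex (embryonic day) of 2 control embryos, labelled wild type and described in the methods as Qkfl/fl, with that of 2 Qk cKO littermates, Nestin-cre:Qkfl/fl. In both groups loxP sites flank exon 2 of Qk, and Cre from the Nestin promoter removes this exon in neural progenitor cells, so cells of other lineages in the tissue keep it. PolyA-selected mRNA was sequenced as paired reads, and the authors deposited for every gene the tags assigned to it, which are estimated counts, and its RPKM, a value scaled to exon length and to the depth of the sample. A Cre-negative control shows the effect of the deletion and of Cre together, which cannot be told apart, and the labels do not say which embryos share a litter.

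Between 37942046 and 42994832 tags per sample lay on genes. The junction of Qk exon 2 to exon 3 carried 635 and 565 tags in the controls, but 63 and 68 after deletion. Markers of the cortex were present in all libraries, with summed RPKM of 9 neuronal markers between 1312 and 1414, of 8 radial glia markers between 1267 and 1633 and of 4 intermediate progenitor markers between 97.4 and 103.8. Of these lists, 2 of 8 radial glia markers passed the test and were lower in Qk cKO (Fabp7 and Slc1a3), against 0 of 9 neuronal and 0 of 4 intermediate progenitor markers. Of 6 hypothalamic genes 5 passed and were lower, namely Nr5a1, Six6, Pomc, Nkx2-2 and Sox14. Over all genes tested, 0.584% were called. These 5 and Fabp7 are on the study's own list of changed transcripts in the same samples, so their calls are a description. The 6 genes had summed RPKM of 2.09 and 6.74 in control against 0.635 and 0.540 in Qk cKO, so that control replicate 2 was highest. The part of these genes in the values of the enzymes was not tested. In bulk tissue, fewer cells of a type and less RNA per cell cannot be told apart.

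Across genes the enzymes spanned a wide range of levels, and each kept its place in every sample. Pkm was highest at 473 to 494 RPKM, followed by Tpi1 at 204 to 246, Aldoa at 139 to 145, Gpi1 at 109 to 115, Aldoc at 97.2 to 108, Pfkl at 54.7 to 57.5, Gapdh at 35.0 to 48.6, Pgk1 at 24.4 to 29.2, Hk1 at 22.8 to 23.8 and Pfkp at 15.6 to 17.8. The ranges of neighbours in this order did not overlap, although Gpi1 and Aldoc in control replicate 1, at 109 and 108 RPKM, differed by less than the spread of Aldoc between the control samples (SD 7.86, n = 2). Summed over all 10 enzymes, the level was 1227 and 1203 RPKM in control and 1244 and 1248 in Qk cKO. Pkm alone made up 37.9% to 39.7% of that sum.

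**Figure D1:**
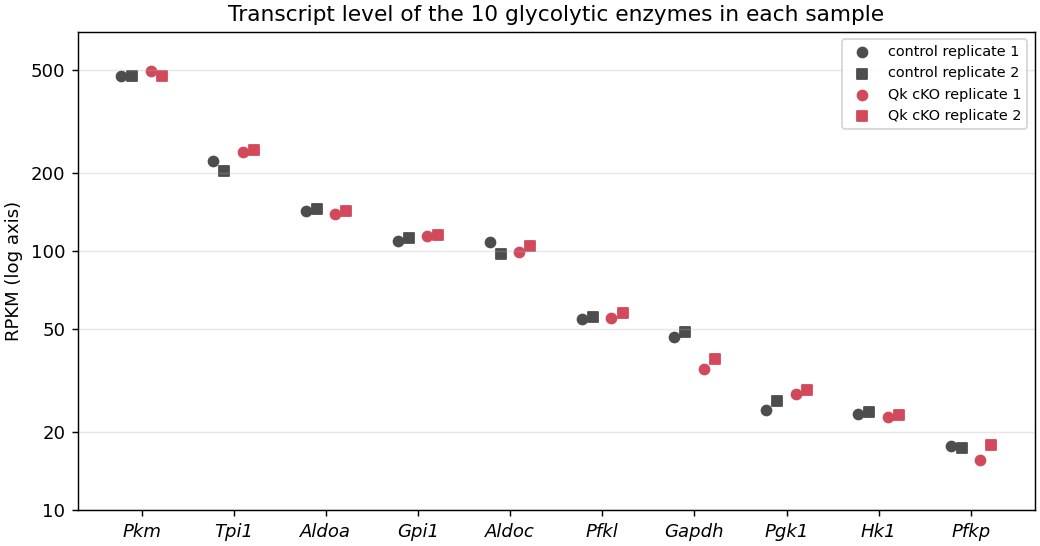
RPKM of each enzyme (log axis) in control replicates 1 and 2 (grey) and Qk cKO replicates 1 and 2 (red), ordered by mean level. Every point is 1 sample. Gapdh in Qk cKO, at 35.0 and 38.1 RPKM, lies below both controls at 46.7 and 48.6, and the other enzymes differ less.

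Of the 10 enzymes, all passed the filter of at least 1 tag and were tested, and 1 was called at p below 0.01 and a Benjamini-Hochberg FDR below 0.1 (edgeR's quasi-likelihood test), in the direction of lower in Qk cKO. Over all 18834 genes tested, 110 or 0.584% were called. The median log2 fold change, Qk cKO against control, was 0.02 for the 10 enzymes and -0.003 for all genes. For 5 of the 10, both Qk cKO samples lay on 1 side of both controls (3 above, 2 below), while 36.9% of all genes tested did so.

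In the order of the pathway, Hk1, the hexokinase of most brain cells, had 23.5 and 23.8 RPKM in control and 22.8 and 23.3 in Qk cKO (log2 fold change -0.02 ± 0.05 SE). Gpi1, which turns glucose 6-phosphate into fructose 6-phosphate, had 109 and 112 RPKM in control and 114 and 115 in Qk cKO (log2 fold change 0.06 ± 0.07 SE). Neither passed the test, at 97.7% and 103.6% of their control means. The phosphofructokinases Pfkl and Pfkp had 54.7 and 55.6, and 17.7 and 17.3 RPKM in control. In Qk cKO they had 55.1 and 57.5, and 15.6 and 17.8, so that for each the groups overlapped.

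Of the aldolases, which cut fructose 1,6-bisphosphate into 3-carbon sugars, Aldoa had 143 and 145 RPKM in control and 139 and 143 in Qk cKO. Aldoc, the brain form, had 108 and 97.2 in control and 98.9 and 104 in Qk cKO. Both overlapped between the groups. Tpi1, which interconverts the products of aldolase, had 224 and 204 RPKM in control and 241 and 246 in Qk cKO. It was higher in both Qk cKO samples than in both controls, but with a log2 fold change of 0.20 ± 0.08 (SE) and an FDR of 0.393 in edgeR's quasi-likelihood test it was not called.

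Pgk1, which makes the first ATP of the pathway, had 24.4 and 26.3 RPKM in control and 28.0 and 29.2 in Qk cKO. The samples did not overlap, and edgeR's test gave a log2 fold change of 0.19 ± 0.09 (SE) with an FDR of 0.590, so it was not called. Pgk1 lies on the X chromosome, and by Xist and the genes of the Y chromosome replicate 1 of each group is female and replicate 2 male, so the sexes are balanced between the groups. The total of Pkm, 476 and 473 RPKM in control and 494 and 473 in Qk cKO, overlapped between the groups (log2 fold change 0.04 ± 0.08 SE, FDR 0.921 in edgeR's test).

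Isozymes of the same step were compared by their shares, with no test. Hk1 made up 77.5% to 78.3% of the summed RPKM of the hexokinases in control and 76.9% to 77.7% in Qk cKO, with most of the rest on Hk2. Among phosphofructokinases, Pfkm had the largest share at 45.9% to 48.5% over all samples, followed by Pfkl at 39.3% to 41.3% and Pfkp at 11.4% to 12.8%. The share of Pfkl was 39.3% and 39.5% in control and 40.1% and 41.3% in Qk cKO, without overlap. Gapdhs, the form of sperm, took 13.5% and 12.6% of the summed Gapdh and Gapdhs RPKM in control and 15.5% and 16.0% in Qk cKO, also without overlap. Gapdhs itself had 7.31 and 7.03 RPKM in control and 6.42 and 7.27 in Qk cKO, which overlapped, so its share followed the lower Gapdh. The size of this share is uncertain, since Gapdh shares much sequence with other genes (58.4% of its 50-base words) and Gapdhs none (0%). Ldha took 45.8% and 44.9% of the summed Ldha and Ldhb RPKM in control and 46.7% and 48.7% in Qk cKO. Aldoa held 56.9% to 59.9% of the aldolase RPKM, and Aldoc nearly all of the remainder.

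Gapdh, which oxidizes glyceraldehyde 3-phosphate and makes the NADH of the pathway, lies on the minus strand at chr6:125161715-125166467 (mm10). It had 46.7 and 48.6 RPKM in control (47.7 ± 1.36 SD, n = 2) and 35.0 and 38.1 in Qk cKO (36.6 ± 2.18 SD, n = 2). Both Qk cKO samples lay below both controls, at 76.7% of the control mean, and the distance between the groups was larger than that between the samples of either. The log2 fold change was -0.37 ± 0.09 (SE), with an FDR of 0.0959 in edgeR's quasi-likelihood test, close to the limit of 0.1. The study's own list of changed transcripts, from edgeR with the same thresholds, does not hold Gapdh. The size stayed between -0.42 and -0.32 in every alternative fit, but the call was lost with edgeR's exact test (FDR 0.183), with a stricter filter on low counts (FDR 0.312), with limma on log2 RPKM (FDR 0.341 and 0.568), and without control replicate 1 (FDR 0.462), control replicate 2 (FDR 0.920) or Qk cKO replicate 1 (FDR 0.169).

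Tags of Gapdh depend on how reads shared with other genes were assigned. Of the 50-base words in its annotated coding transcripts, 58.4% also occur in transcripts of other genes, 218 in number, since the mouse genome holds many processed copies of Gapdh. The share was 68.0% for Pgk1 (5 other genes), 23.7% for Pkm (8), 18.6% for Gpi1 (51), and at most 6.83% for each of the remaining 6 enzymes. How the aligner treated such reads was not tested, and the level of Gapdh and Pgk1 relative to other genes is uncertain for this reason.

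The tags on exon junctions were read as well. Processed copies lack introns, so a tag counted on a junction was not placed on a copy. A read across a junction can still match a copy, where the exons are joined, so these tags also depend on the assignment. They come from the same libraries and are not independent of the level of the gene. At the junctions upstream and downstream of an internal exon of Gapdh, there were 4.61 and 4.53, and 6.11 and 6.43 CPM in control, where CPM is the tags per 1000000 tags on genes. In Qk cKO the same junctions had 2.84 and 3.94, and 4.28 and 4.36 CPM. Another junction, nearer the start of the gene, had 3.36 and 3.98 CPM in control and 2.91 and 3.29 in Qk cKO. At each of these 3 junctions both Qk cKO samples were below both controls, at 74.2%, 68.9% and 84.4% of the control mean, although they rest on only 122 to 253 tags per sample.

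Gapdh was the study's scale for PCR, so its ratio to other genes is given. These ratios rest on the tags assigned to Gapdh in 2 samples per group. The study's PCR is another measure, made on at least 3 biological replicates, and whether Gapdh differed there was not tested. The ratio of Gapdh to Actb, which encodes beta-actin, was 0.0432 and 0.0433 in control and 0.0320 and 0.0349 in Qk cKO, at 77.4% of control. Relative to Sdha, a subunit of mitochondrial complex II, it was at 76.8% of control, and relative to Ywhaz, a signalling adaptor, at 77.7%. These 3 genes themselves had log2 fold changes of 0.0005 for Actb, 0.01 for Sdha and -0.006 for Ywhaz. These are the values nearest 0 among the 14 reference genes below, so ratios to them repeat the 76.7% of control of Gapdh itself and add no support. The ratio depended on the partner, at 94.6% of control relative to Ppia (0.379 and 0.492 in control, 0.372 and 0.451 in Qk cKO, overlapping), 91.1% relative to Gusb, 86.5% relative to Rpl13a and 49.3% relative to Hprt. With the remaining partners it was at 81.4% (Rplp0), 75.8% (B2m), 74.6% (Tbp), 71.7% (Eef1a1), 67.9% (Pgk1) and 65.7% (Tfrc). Partners share 50-base words with other genes as well, 52.4% for Eef1a1, 41.1% for Rpl13a, 34.5% for Rplp0 and 23.7% for Ppia (76 other genes), against 0% for Gusb and Hprt. The part of this in the ratios was not tested.

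Of 14 genes commonly used as reference, 2 were called, Gapdh lower and Hprt higher in Qk cKO. Of these, Hprt is on the study's own list of changed transcripts and Gapdh is not. Hprt, a purine salvage enzyme on the X chromosome, had 28.1 and 24.3 RPKM in control and 38.0 and 43.1 in Qk cKO (log2 fold change 0.64 ± 0.10 SE, FDR 0.0070 in edgeR's test). Its call was lost with the stricter filter, with limma and without either control sample. Ppia (log2 fold change -0.30, FDR 0.197), Gusb (-0.25, FDR 0.599) and Rpl13a (-0.16, FDR 0.704) were not called, nor were Rplp0 (-0.06), B2m (0.04), Tbp (0.05), Eef1a1 (0.11), Pgk1 (0.19) and Tfrc (0.23). With the replicate number as a block, Ppia was called as well (FDR 0.0643). Without Qk cKO replicate 1, Ppia (FDR 0.0095), Rpl13a (FDR 0.0686) and Tfrc (FDR 0.0223) were called with Hprt, and Gapdh was not. The median log2 fold change of the 14 was 0.007.

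**Figure D2:**
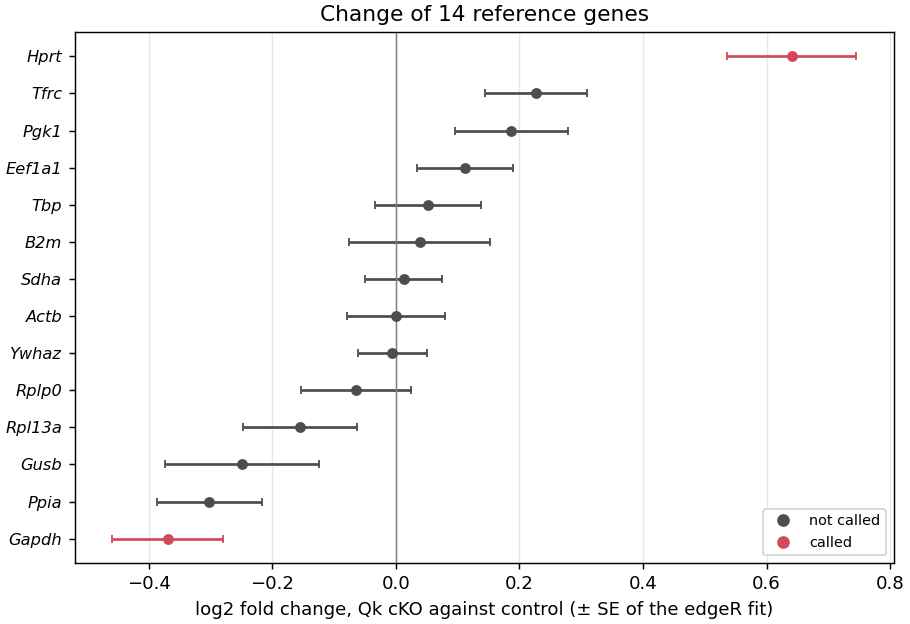
Log2 fold change, Qk cKO against control, with its standard error from the edgeR fit, of 14 genes used as PCR reference (points, 1 per gene, ordered by value, red where called). Gapdh is lowest at -0.37 and Hprt highest at 0.64, and Actb, Sdha and Ywhaz lie near 0.

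None of the 16 other glycolytic enzymes tested was called (17 listed, Pgk2 without a tag), with a median log2 fold change of -0.01 and a range of -1.93 (Pklr, at no more than 0.181 RPKM) to 0.27. In 5 of the 16 both Qk cKO samples were below both controls, and in 1 both were above, while 36.9% of all genes tested did either. Of these enzymes, Eno1, the main enolase, had 99.3, 95.9, 104 and 98.8 RPKM in control replicates 1 and 2 and Qk cKO replicates 1 and 2. Pfkm had 66.6, 67.8, 66.5 and 63.9 RPKM in the same order, and Bpgm, which makes 2,3-bisphosphoglycerate, 18.0, 17.6, 18.4 and 17.0. Of 14 genes of lactate and glucose transport and of flux control, none was called either, with a median of 0.05. Ldha, the lactate dehydrogenase subunit that favours lactate, had 204 and 184 RPKM in control and 210 and 224 in Qk cKO (log2 fold change 0.17 ± 0.08 SE, FDR 0.518 in edgeR's test). Ldhb and the glucose transporter Slc2a1 had log2 fold changes of 0.04 and 0.06.

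**Figure D3:**
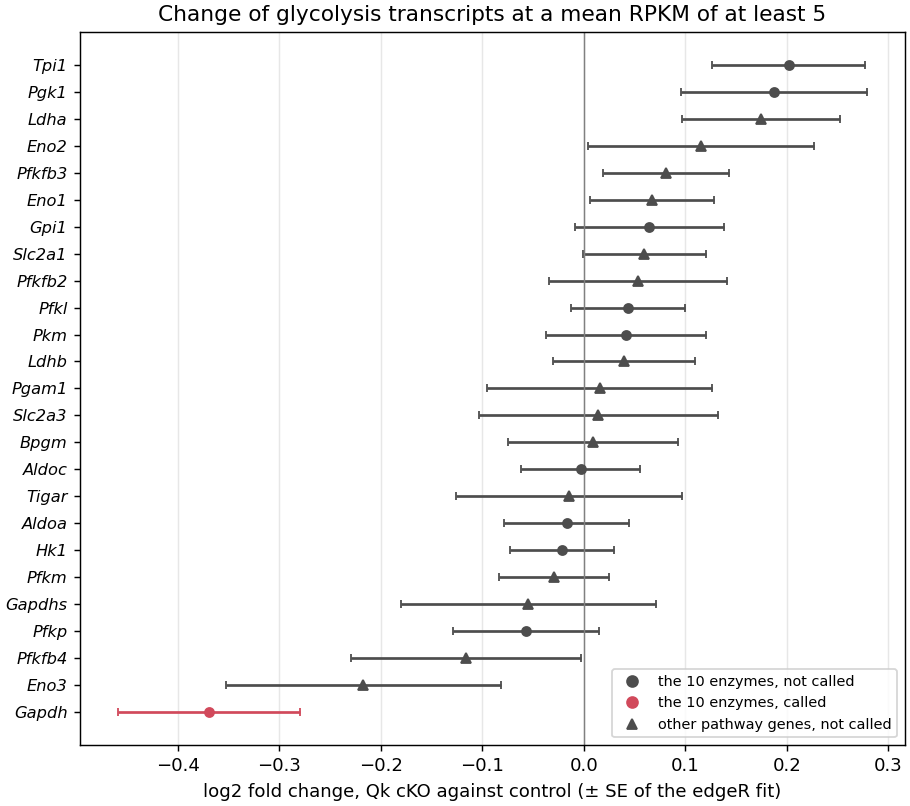
Log2 fold change, Qk cKO against control, with its standard error from the edgeR fit, of the 10 enzymes (circles) and 15 other genes of glycolysis, transport and flux control (triangles) at a mean RPKM of at least 5. Gapdh (red) is the only one called and lies at -0.37, while the others lie between -0.22 and 0.20.

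Branches off the pathway had no called gene. The count was 0 of 14 for pyruvate entry into mitochondria (median log2 fold change 0.001), 0 of 7 for the pentose phosphate pathway (median -0.02) and 0 of 5 for serine synthesis (median 0.04). For gluconeogenesis it was 0 of 5 (median -1.52, or 0.03 over the 2 with a mean RPKM of at least 1). For hypoxia-responsive genes outside glycolysis it was 0 of 13 (median 0.11, or 0.02 over the 11 with a mean RPKM of at least 1). At an unadjusted p below 0.05 in edgeR's quasi-likelihood test there were 2 hypoxia-responsive genes and 1 gene each of the transport and flux, pentose phosphate and serine lists, and 0 in the other lists of the pathway. Over all genes, 1650 of 18834 tested were below this limit. DESeq2 and edgeR's exact test also called 0 genes of all these lists. Phgdh, the first enzyme of serine synthesis from 3-phosphoglycerate, had 69.1 and 68.4 RPKM in control and 61.5 and 59.0 in Qk cKO (log2 fold change -0.18 ± 0.06 SE, FDR 0.249 in edgeR's test). Psat1 and Shmt2 of the same branch had log2 fold changes of 0.06 and 0.04. Pgls of the pentose phosphate pathway, named after its values were seen, had 41.1 and 39.0 RPKM in control and 33.2 and 30.7 in Qk cKO. It was not called (log2 fold change -0.31 ± 0.10 SE, FDR 0.255 in edgeR's test). The other named genes, Pdha1 (0.09), Pdhb (0.04), Dld (0.10), Pck2 (-0.03), G6pc3 (0.08), Pgd (-0.07), Tkt (0.08), Taldo1 (-0.03), Egln1 (0.003), Ddit4 (-0.12) and Kdm3a (0.12), were not called, and Fbp2 reached at most 0.122 RPKM.

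The splicing of Pkm is the other place where an enzyme differed. Pkm lies on the plus strand at chr9:59656368-59679375, and its exons 9 and 10, numbered along the gene, are used alternatively, exon 9 in Pkm1 and exon 10 in Pkm2. Exon 9 lies at chr9:59675029-59675195 and exon 10 at chr9:59675568-59675734, both within the coding sequence, with an intron of 372 nt between them. Both have 167 nt, and since this is not a multiple of 3, including both or neither shifts the reading frame. They are shown because the finding is a choice between them, with capitals at the 64 positions where they differ and lower case at the 103 they share (61.7% identity, aligned without gaps, from the transcripts of GENCODE M21).
Pkm exon 9: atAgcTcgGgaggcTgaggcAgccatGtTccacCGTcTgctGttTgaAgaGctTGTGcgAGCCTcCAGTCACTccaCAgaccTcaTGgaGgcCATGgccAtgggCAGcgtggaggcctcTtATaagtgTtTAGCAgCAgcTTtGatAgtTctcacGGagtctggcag
Pkm exon 10: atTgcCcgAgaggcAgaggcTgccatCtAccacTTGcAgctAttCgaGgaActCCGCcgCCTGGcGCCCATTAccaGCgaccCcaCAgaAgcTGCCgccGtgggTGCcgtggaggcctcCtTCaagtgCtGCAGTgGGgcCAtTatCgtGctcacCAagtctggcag

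The tags that tell the isoforms apart are those on the 4 junctions of these exons with exon 8 (chr9:59671921-59672073) and exon 11 (chr9:59678044-59678225). The 40 bases around each junction are shown with the alternative exon in capitals, because they are the sequence a read must cross to be counted.
exon 8 to exon 9: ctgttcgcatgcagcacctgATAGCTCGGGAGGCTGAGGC
exon 8 to exon 10: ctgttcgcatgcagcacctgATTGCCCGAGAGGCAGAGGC
exon 9 to exon 11: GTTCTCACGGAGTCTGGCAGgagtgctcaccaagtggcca
exon 10 to exon 11: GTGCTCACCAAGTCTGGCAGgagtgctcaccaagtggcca

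Exon 9 made up 36.8% (95% Wilson interval 35.1% to 38.5%) and 38.7% (36.9% to 40.7%) of the exon 9 and 10 junction tags in control replicates 1 and 2. In Qk cKO replicates 1 and 2 it made up 51.5% (49.8% to 53.1%) and 46.3% (44.6% to 48.0%). Each value rests on 2526 to 3445 junction tags, and the intervals cover counting error only. Both Qk cKO samples lay above both controls, and their intervals did not overlap with those of the controls.

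Over the summed tags exon 9 inclusion rose from 37.7% in the controls to 49.0% after deletion, a difference of 11.3 percentage points (p = 9.05e-33 and FDR = 2.71e-30 in the two-sided Fisher's exact test on summed isoform tags). As group means, it was 37.8% ± 1.39 (SD, n = 2) in control and 48.9% ± 3.67 (SD, n = 2) in Qk cKO. The pair is on the study's own list of changed events in the same samples, so this test is a description. Fisher's test on summed tags takes no account of the spread between embryos. When that spread was estimated with an edgeR fit that tests whether the isoform ratio depends on genotype, p was 0.00116 and FDR 0.174, so the call was lost, as it was for most events of the series (64 called instead of 862). The difference was 8.60 to 13.8 percentage points when each sample was left out in turn.

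Tags on exon 9 were at 27.7 and 27.5 CPM in control and 41.8 and 37.6 in Qk cKO, 1.44 times as high in the mean. Tags on exon 10 were at 48.8 and 44.0 CPM in control and 43.0 and 44.4 in Qk cKO, so those groups overlapped. On another scale, the share of each exon times the RPKM of Pkm, exon 9 had 175 and 183 in control and 254 and 219 in Qk cKO. Exon 10 had 300.9 and 289.9 in control and 239.9 and 254.3 in Qk cKO on this scale, 0.836 times the control mean and without overlap, so whether exon 10 was lower depended on the scale. The junction of exon 8 to exon 9 had 11.9 and 10.6 CPM in control and 17.7 and 15.3 in Qk cKO, and that of exon 9 to exon 11 had 14.2 and 15.2 in control and 23.5 and 20.2 in Qk cKO. Both were higher in each Qk cKO sample than in each control.

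Exon 8 to exon 10 had 30.2 and 26.7 CPM in control and 25.1 and 26.6 in Qk cKO, and exon 10 to exon 11 had 14.6 and 14.1 in control and 13.8 and 14.7 in Qk cKO. The first was lower in both Qk cKO samples by a margin of less than the spread within a group, and the second overlapped.

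**Figure D4:**
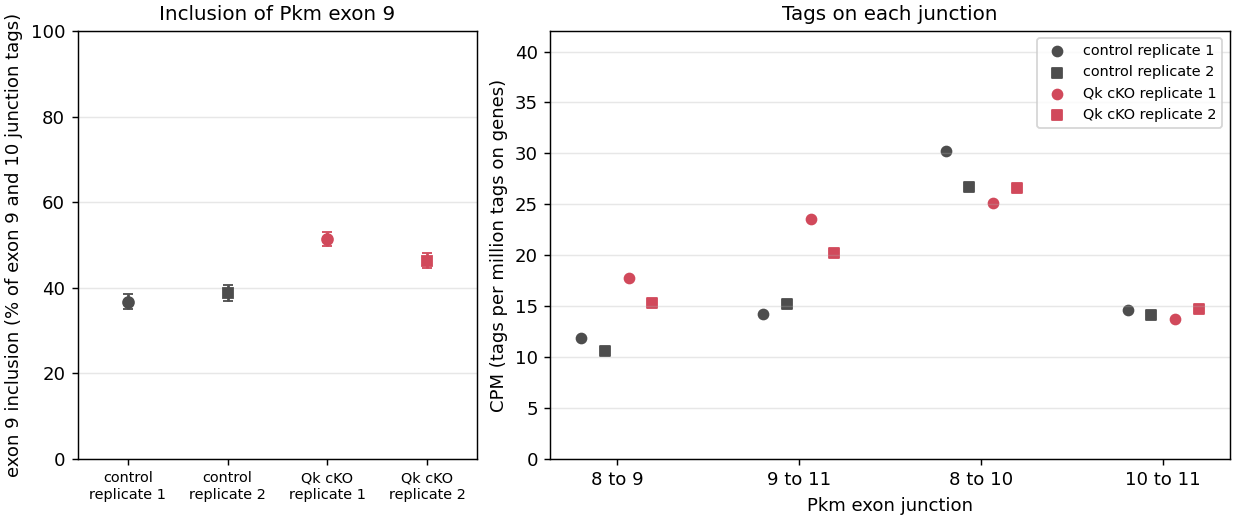
Left, inclusion of Pkm exon 9 as a percentage of the exon 9 and exon 10 junction tags in each sample, with 95% Wilson intervals for counting error. Right, tags on each of the 4 junctions as CPM in the same samples (grey control, red Qk cKO, circles replicate 1, squares replicate 2). Exon 9 inclusion is 36.8% and 38.7% in control and 51.5% and 46.3% in Qk cKO, and the junctions 8 to 9 and 9 to 11 are higher in Qk cKO.

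The level of inclusion depended on the side of the exon that was read, but the difference did not. By the junctions from exon 8 alone, exon 9 inclusion was 28.2% and 28.4% in control and 41.4% and 36.6% in Qk cKO. By the junctions to exon 11 alone, it was 49.3% and 51.9% in control and 63.1% and 57.9% in Qk cKO. The groups differed by 10.8 and 10.1 percentage points over the summed tags. At their ends the exons share the last 10 bases, whereas at their starts they share only the first 2, and only the downstream junctions have tags that are not whole. The part of this in the level was not tested.

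Because Pkm1 is typical of neurons and of muscle, markers of these cells are given beside the exon pair. None of 9 neuronal markers was called, with a median log2 fold change of 0.04 and summed RPKM of 1377 and 1414 in control against 1372 and 1312 in Qk cKO. Tubb3, Neurod6 and Stmn2, the most abundant of them, had log2 fold changes of -0.12, 0.04 and -0.03. Others, named after their values were seen, were Dcx at 0.16, Map2 at 0.11 and Tbr1 at 0.15, of which Dcx and Map2 were higher in both Qk cKO samples than in both controls. Of 7 genes of the subpallium and interneurons 0 were called, with a median log2 fold change of 0.10. Both Qk cKO samples lay above both controls for 4 of the 7 and below for 1, while 36.9% of all genes tested did either. The most abundant were Dlx1 (0.10), Dlx2 (-0.09) and Dlx5 (0.01). Named after their values were seen, Gad1 and Gad2, which make GABA, had 0.16 each and were higher in both Qk cKO samples. Nkx2-1 had -0.18 and was lower in both. The 8 radial glia markers summed to 1633 and 1512 RPKM in control and 1329 and 1267 in Qk cKO, most of it Fabp7, a fatty acid binding protein of progenitors, with 989 and 901 in control and 703 and 667 in Qk cKO. The median log2 fold change of the 8 was -0.10. Both Qk cKO samples lay below both controls for 4 of the 8 and above for 1, beside the same 36.9% of all genes. The uncalled markers are named after their values were seen. Sox2 (-0.29) and Hes5 (-0.19) were lower in both Qk cKO samples than in both controls. Pax6 (0.08), Hes1 (0.08), Nes (0.04) and Vim (-0.01) had log2 fold changes near 0, and Pax6 was higher in both Qk cKO samples than in both controls. Skeletal muscle genes were near 0, with summed RPKM of 0.682 to 1.22, and Myog was at 0 in every sample. The part of the cell composition in the shift was not tested.

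Proteins known to act on this exon pair did not differ in transcript level beyond the threshold. Of 8 such genes 0 were called, with a median log2 fold change of 0.05. Ptbp1, which represses exon 9, had 77.3 and 71.1 RPKM in control and 74.8 and 74.9 in Qk cKO. Hnrnpa1, another repressor, had 65.1 and 60.2 in control and 62.3 and 71.4 in Qk cKO, and Hnrnpa2b1 had 651 and 614 in control and 636 and 637 in Qk cKO. Log2 fold changes were 0.11 for Ptbp2, 0.21 for Ptbp3, -0.02 for Srsf3, which favours exon 10, 0.03 for Rbm4 and 0.07 for Rbm4b. Ptbp3 had the largest, with 4.95 and 5.10 RPKM in control and 5.44 and 6.09 in Qk cKO (FDR 0.591 in edgeR's test). Both Qk cKO samples lay above both controls for 2 of the 8 (Ptbp2 and Ptbp3) and below for 0, while 36.9% of all genes tested did either. The study lists Hnrnpa2b1 among its genes with Qki-regulated splicing. The splicing of these 8 genes was not examined here.

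Of the 38 events of the 10 enzymes, 9 had a coverage of at least 20 tags and were tested, and 1, the Pkm pair, was called. Coverage is the smallest sum of junction tags over a group or an isoform. Over all genes, 862 of 11500 tested events were called, or 7.50%. Gpi1 and Pgk1 have no listed event, and none of those of Gapdh, Aldoc, Pfkl and Pfkp reached the coverage, in several because nearly all tags used the same isoform. With a coverage of 5294 tags the Pkm pair ranked 9th among 598 tested pairs of mutually exclusive exons, 24 of which were called.

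The other tested events concern rare forms. A cassette exon of Hk1 had an inclusion of 3.45% among controls against 1.32% after deletion (FDR 0.575, Fisher's exact test). A cassette exon of Aldoa near the start of the gene had 0.433% against 0.783% (FDR 0.755), and a retained intron of Tpi1 had 0.214% against 0.362% (FDR 0.476). None was called by any alternative run for it.

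Pkm also has rare exons between exons 1 and 2, named here after their values were seen. They are a pair of alternative exons whose inclusion as cassettes lay between 0.126% and 0.294% in the summed tags of a group. The more upstream exon had 12 and 19 junction tags in control and 9 and 6 in Qk cKO, and the other had 9 and 6 in control and 15 and 19 in Qk cKO. Of the tags of both, the upstream exon thus took 57.1% and 76.0% in control and 37.5% and 24.0% in Qk cKO, without overlap. This was not called on all isoform tags (p = 0.0105, FDR = 0.210, Fisher's exact test) but was on junction tags alone (FDR = 0.00984). Inclusion of the upstream exon as a cassette, at 0.294% in control and 0.126% in Qk cKO, was not called (FDR = 0.116, Fisher's exact test) but was on junction tags alone (FDR = 0.0751), with the replicate block (FDR = 0.0989, Cochran-Mantel-Haenszel test) and without control replicate 1 (FDR = 0.0767).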

How the data were processed

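Messenger RNA of the embryonic cortex was measured in 4 samples (2 control, 2 Qk cKO), grouped by their labels. Reads had been mapped to mm10 and exon junctions with OLego, and the authors deposited, from Quantas, estimated counts of tags per gene and per splicing event and the RPKM per gene. Versions of these tools are not given in the sources used here. Tags per gene were rounded and tested in edgeR 4.0.16 (R 4.3.3; quasi-likelihood, TMM) over genes with at least 1 tag. Splicing events with a coverage of at least 20 were tested with the two-sided Fisher's exact test on rounded isoform tags summed over replicates, adjusted within each event type. Calls needed p below 0.01 and FDR below 0.1. Standard errors come from the F statistic. The edgeR, DESeq2 and Fisher tests were tested on simulated data.

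Annotation and exon sequences come from GENCODE M21 (GRCm38, the same build as mm10). Gene symbols missing from the files were matched through RefSeq (GRCm38.p6) gene identifiers; Hbb-bt was not found. Words of 50 bases were compared across all annotated transcripts. Other settings tried were DESeq2 1.42.0, edgeR's exact test, other scalings and filters, limma on log2(RPKM + 1) and log2(RPKM + 0.1), the replicate number as a block, each sample left out, and for splicing junction tags, other coverage minimums, an edgeR interaction test and a Cochran-Mantel-Haenszel test. Reading each side of the Pkm exons, the share of isoform tags and the ratio to Actb was added after the data were seen. The members, gene lists and tests were chosen with earlier results of these data known. Named genes are every member and, from each other list, those called, or else the 3 of highest mean RPKM; reference genes and Pkm exon regulators are all named, except that 2 items of the reference list are not reported here. Nothing says whether the samples of a group were extracted from separate litters. P-values of the fits to genes and of the edgeR interaction test measure the spread between these samples. Those of Fisher's exact test and of the Cochran-Mantel-Haenszel test rest on tag counts and take no account of that spread. Embryos with the same replicate number deviated together over all genes (correlation 0.534) but not over autosomal genes (-0.065), so the numbers were not taken as pairs.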

Additional observations from a re-analysis of the deposited data

How the results depend on the processing

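Gapdh was the only enzyme called, and it was called with DESeq2, upper-quartile scaling, DESeq2 size factors, the replicate block and without Qk cKO replicate 2, so that the count of called enzymes was 1 there and 0 with edgeR's exact test, filterByExpr and both limma fits. Leaving out 1 sample at a time gave 0 to 1. Over all genes the count of 110 became 57 with the exact test, 11 with filterByExpr, 0 and 1 with limma (pseudocounts 1 and 0.1; 1412 and 1422 genes had an unadjusted p below 0.05), 192 with the replicate block and 0 to 428 without a sample, 0 without control replicate 2 and 428 without Qk cKO replicate 1. The 2 called reference genes became 1 with the exact test, 0 with filterByExpr and with both limma fits, and 0 to 4 without a sample (4 without Qk cKO replicate 1), and 3 with the replicate block, which added Ppia. In the other pathway lists 0 were called except without Qk cKO replicate 1, where 1 was (Pgls), a range of 0 to 1. The count of called enzyme events was 1 and became 3 on junction tags only, 0 with the edgeR interaction, 2 with the replicate block and 1 to 2 without a sample. The Pkm pair kept its direction in all 15 alternatives and its call in 14. Those 14 use Fisher's or the Cochran-Mantel-Haenszel test on tags, several with the same p-value, and take no account of the spread between embryos. The alternatives added after the data were seen were judged by p alone. The exception was the edgeR interaction, which estimates that spread, with the same 11.3 percentage points and an FDR of 0.174. Leaving out a sample gave 8.60 to 13.8 percentage points. The cause of these changes was not tested, except that fewer samples enter where one is left out. The block changed no call of an enzyme transcript, with an FDR of 0.0350 for Gapdh and of 2.87e-30 for the Pkm pair (Cochran-Mantel-Haenszel test). With only 2 shared numbers, a pairing of the embryos was not established. Uncalled values changed sign in 4 of 121 fits of the enzymes (Aldoc, Pfkp and Pkm, at most 0.08 on the log2 scale), each without a sample, and in 38 of 491 of the other named genes.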

Other observations

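Blood may contribute to bulk cortical RNA, and red cells are strongly glycolytic. Of 4 erythroid genes found, 1 was called, the beta-globin Hbb-bs (339 and 374 RPKM in control, 557 and 410 in Qk cKO, FDR 0.062 in edgeR's test), which shares much of its sequence with other globins, so its assignment is uncertain. Alas2, the erythroid enzyme of heme synthesis, had a log2 fold change of 0.10. The part of blood in the levels of the enzymes was not tested. None of the 5 endothelial and 5 microglial markers was called.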
